A study of Mus musculus with 51 samples.

Results

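The 7 genes described here are odorant receptors (ORs) on which much of the single-receptor work in mice was done: Olfr2 (I7), Olfr15 (MOR256-17), Olfr16 (MOR23), Olfr17 (P2), Olfr73 (mOR-EG), Olfr151 (M71) and Olfr160 (M72). They were chosen by symbol, by a rule that uses no measured value but was set with earlier results of these data known, and were 7 of the 1117 OR genes in each count table. The data were pS6-IP-Seq libraries, in which an antibody to phosphorylated ribosomal protein S6 retrieves ribosomes and their mRNA from recently active cells. Each of the 51 libraries came from the olfactory mucosa of a C57BL/6J mouse about 3 weeks old, of either sex, that had been exposed for 1 hr to 10 μL of an odorant or of its diluent. In 10 odor groups of 3 mice the exposures were 2-sec-butyl-4,5-dihydrothiazole (SBT) at 0.01%, 1% and 100%, (methylthio)methanethiol (MTMT) at 100 μM and 10 mM, (E)-β-farnesene at 100%, 2,5-dimethylpyrazine (2,5-DMP) at 1%, 3,4-dehydro-exo-brevicomin (DHB) at 77%, β-caryophyllene at 1% and the musk cyclopentadecanone (CPD) at 100 mM. In 7 control groups of 3 mice the diluent alone was given, and 1% and 100% SBT shared a control group, as did (E)-β-farnesene, 2,5-DMP and 100 μM MTMT. Odorants were diluted in water or, for MTMT and CPD, in ethanol, and the labels do not give the diluent of any control group, including the one that (E)-β-farnesene, 2,5-DMP and 100 μM MTMT shared. Exposed and control mice were matched by litter per the study's methods, and the labels do not say whether a replicate number marks a litter.

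Each olfactory sensory neuron (OSN) transcribes 1 OR gene, from a single allele, and an odorant activates the subset of OSNs whose receptors bind it. Phosphorylation of ribosomal protein S6 follows neuronal activity, so the mRNA of a receptor whose neurons respond makes up a larger share of the OR reads in a pS6 precipitate from an exposed mouse than in one from a control. In diluent-exposed mice the share reflects how many neurons express the receptor, how much mRNA each holds and their resting activity; in these bulk libraries fewer cells of a type and less RNA per cell cannot be told apart. I7 is known for its response to octanal, MOR23 to lyral, mOR-EG to eugenol, and M71 and M72 to acetophenone. MOR256-17 is known as a broadly tuned receptor, and P2 from studies of how OSN axons find their glomeruli. None of these textbook ligands was among the 10 exposures, of which SBT, MTMT, (E)-β-farnesene and DHB are known constituents of male mouse urine or of the glands that scent it.

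The genes lie on 5 chromosomes of the GRCm38 assembly in the GENCODE M21 annotation. Olfr2 (chr7:106995399-107006072, minus strand) and Olfr17 (chr7:107093220-107099808, plus strand) belong to the same chromosome 7 cluster, 87148 bases apart. Olfr160 (chr9:37708964-37716250, minus strand) and Olfr151 (chr9:37729977-37731104, minus strand) are neighbors on chromosome 9, separated by 13727 bases. Olfr16 lies at chr1:172950409-172958357, plus strand, Olfr73 at chr2:88032288-88037699, minus strand and Olfr15 at chr16:3830878-3844747, plus strand. The coding sequences of M71 and M72 were 96.7% identical, whereas every other pair of the 7 was between 54.7% and 59.8% identical. A stretch that ORs have in common, the DRY motif at the end of the third transmembrane segment, shows this spread. Searched as a methionine codon, any 2 codons and codons for aspartate, arginine and tyrosine in the coding frame, it was found in 6 of the 7 and in 873 of 1114 OR coding sequences (78.4%). The 60 coding bases around it are shown 5′ to 3′ with the motif in capitals; M71 and M72 are the same over this stretch.
Olfr2 (I7), chr7:107001454-107001513, minus strand: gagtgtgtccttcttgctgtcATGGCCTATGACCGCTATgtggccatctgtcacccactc
Olfr15 (MOR256-17), chr16:3839305-3839364, plus strand: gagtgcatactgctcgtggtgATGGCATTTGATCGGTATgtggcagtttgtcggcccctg
Olfr16 (MOR23), chr1:172957127-172957186, plus strand: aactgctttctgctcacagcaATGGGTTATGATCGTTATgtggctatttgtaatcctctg
Olfr17 (P2), chr7:107097800-107097859, plus strand: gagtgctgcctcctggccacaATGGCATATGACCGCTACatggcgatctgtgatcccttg
Olfr151 (M71), chr9:37730592-37730651, minus strand: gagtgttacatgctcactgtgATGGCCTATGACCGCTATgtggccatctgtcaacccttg
Olfr160 (M72), chr9:37711888-37711947, minus strand: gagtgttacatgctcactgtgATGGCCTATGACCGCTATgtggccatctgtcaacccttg

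M71 differs from the other 6 in its annotation. GENCODE M21 calls Olfr151 a polymorphic pseudogene, and RefSeq a transcribed pseudogene, and its coding sequence is 929 bases long against 930 for M72. Aligned to M72, it had 30 mismatches and 1 gap of a single base, in a run of G that is 2 bases long in Olfr151 and 3 in Olfr160. Read in frame from the start codon, Olfr151 met a stop after 258 codons, where Olfr160 has 309. The assembly is of the C57BL/6J strain, to which these mice belong. The following sequences run from coding base 711 to 810 of both genes, and the capitals mark the run of G and, in Olfr151, the stop codon at coding bases 775 to 777.
Olfr151 (M71), chr9:37730172-37730271, minus strand: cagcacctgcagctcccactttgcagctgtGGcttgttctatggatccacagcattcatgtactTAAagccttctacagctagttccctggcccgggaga
Olfr160 (M72), chr9:37711468-37711567, minus strand: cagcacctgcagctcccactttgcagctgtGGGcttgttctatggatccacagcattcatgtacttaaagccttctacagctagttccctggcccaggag

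Because reads were 50 or 75 bases long and could align to up to 10 places, the exons were also searched for stretches of 50 bases found in another OR transcript. Olfr15 and Olfr16 had none, Olfr2, Olfr17 and Olfr73 had 0.258%, 0.663% and 2.23% of their stretches, and Olfr160 had 10.2%, all of them with Olfr151. Of the 1079 stretches of Olfr151, 355 (32.9%) were shared with Olfr160, and the longest run in which the 2 coding sequences are identical was 177 bases. The authors' quantification divides reads that fit both genes, so the counts of M71 and M72 are more uncertain than those of Olfr2, Olfr17 and Olfr73, which share few stretches, and of Olfr15 and Olfr16, which share none.

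Reads assigned to OR genes ranged from 27301 to 160001 per library (median 93870). Replicates of a group differed by more than counting noise in all 51 pairs (chi-squared per degree of freedom 5.21 to 28), so errors were taken between mice. The tables list OR genes only, so the labelled tissue could not be checked against markers of other cells. A library of the 10 mM MTMT group, replicate 3, stood apart: 7 ORs with at least 50 reads held there over 3 times their highest share in any other library, Olfr541 (9.79% of its OR reads), Olfr1437 (6.29%) and Olfr2 among them. In the other 50 libraries there were 3 such cases in all, of which 2, Olfr544 and Olfr545, were in replicate 1 of 1% SBT. This comparison of libraries was made after their values had been seen.

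In diluent-exposed mice the 7 receptors together held 1.59% ± 0.169 of the OR reads (SD, n = 21), and their levels ranged from among the highest of the repertoire to almost nothing. MOR256-17, P2 and MOR23 were abundant: they ranked 7th, 40th and 114th of the 1117 ORs by mean share. mOR-EG, M72 and I7 lay near the middle of the repertoire, ranked 475th, 577th and 697th, and M71 ranked 1082nd, with no read in most libraries. The mean share of MOR256-17 was 20.03 times that of the median OR, and that of I7 0.675 times. For comparison, the median OR held 0.0436% of the OR reads, and 7 ORs of an even repertoire would hold 0.627%.

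**Figure D1:**
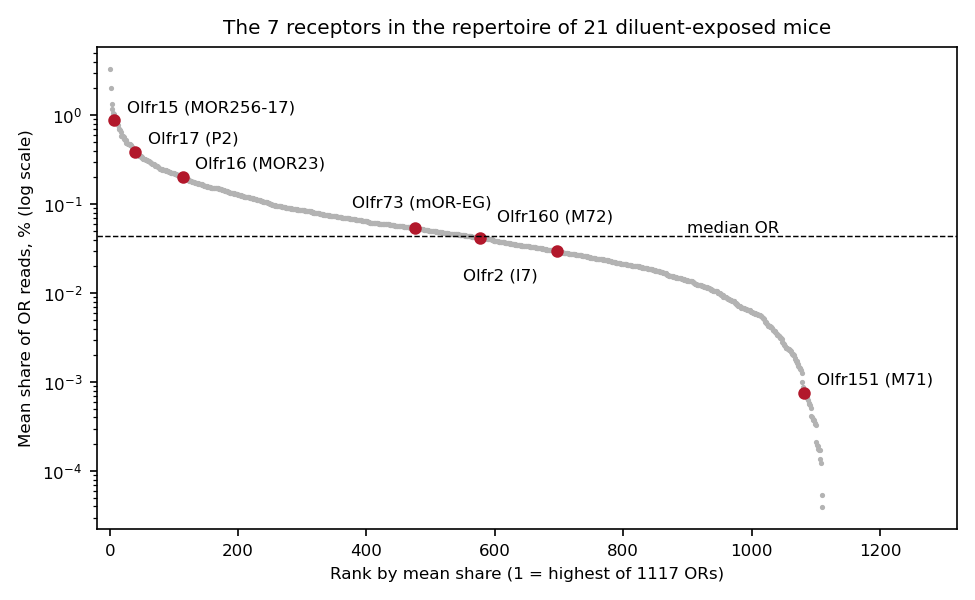
Mean share of OR reads (vertical, log scale, in percent) over the 21 diluent-exposed mice for each OR against its rank (horizontal); gray points are single ORs, the 7 receptors are red, and the dashed line marks the median OR. The 7 ORs with no read in any control library cannot be drawn on a log axis. MOR256-17, P2 and MOR23 sit at the upper left, mOR-EG, M72 and I7 near the dashed line, and M71 at the lower right.

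Olfr15 held 0.874% ± 0.133 (SD, n = 21) of the OR reads of control libraries, from 0.595% to 1.16% (median 0.841%), on 262 to 1382 reads. Olfr17 held 0.386% ± 0.079 (SD, n = 21), from 0.218% to 0.511% (median 0.394%), on 73 to 649 reads. Olfr16 held 0.202% ± 0.0443 (SD, n = 21), from 0.114% to 0.288% (median 0.205%), on 55 to 330 reads. All 3 had at least 55 reads in every control library. Olfr73 held 0.0535% ± 0.016 (SD, n = 21), from 0.0333% to 0.0999% (median 0.049%), on 11 to 90 reads. Olfr160 held 0.042% ± 0.0126 (SD, n = 21), from 0.0192% to 0.0659% (median 0.0428%), on 11 to 63 reads. Olfr2 held 0.0295% ± 0.011 (SD, n = 21), from 0.0115% to 0.0542% (median 0.0262%), on 9 to 38 reads. These last 3 rest on far fewer reads, and their SD was 29.9% to 37.5% of the mean, against 15.2% to 21.9% for the abundant 3. The 95% Wilson interval on the share of Olfr2 in its sparsest control library, CPD replicate 3 with 9 reads, reached from 0.00686% to 0.0248%. Such intervals cover counting error only, since the libraries were amplified by PCR and the tables carry no molecular identifiers.

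M71 was at 0 reads in 16 of the 21 control libraries and in 23 of the 30 odor libraries, and its highest count was 8 reads, in replicate 2 of 2,5-DMP. In the libraries at 0, this count allows a share of up to 0.00201% in the deepest and 0.011% in the shallowest, taking 3 reads as the limit. Pooled over the control libraries, 12 of 1703427 OR reads were assigned to Olfr151 (0.000705%, 95% Wilson interval 0.000403% to 0.00123%), against 695 to Olfr160. The annotated exons of Olfr151 are 1.13 kb long and those of Olfr160 3.49 kb. Per kilobase of exon, the pooled level of M72 was 18.7 times that of M71. By reads alone, which over coding sequences of nearly equal length is also the ratio per coding length, it was 57.9 times, and both rest on the 12 reads of M71, 4 of them in 1 library.

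Shares depend on gene length, so the levels of the 7 genes were set against each other per length, as reads per 100000 OR reads and kilobase of annotated exon. On that scale the order was Olfr15 (139.6 ± 21.2, SD, n = 21), Olfr17 (105 ± 21.6), Olfr16 (75 ± 16.5), Olfr73 (17.6 ± 5.25), Olfr160 (12 ± 3.6), Olfr2 (4.37 ± 1.64) and Olfr151 (0.666 ± 1.41). I7, with 6.73 kb of annotated exon, ranked 921st of the 1117, while MOR256-17 ranked 37th, P2 60th and MOR23 93rd on this scale. The 6 pairs of neighbors in this order were compared within libraries by the log2 ratio of their levels, with 0.5 reads added to each count. All 6 differed by a permutation test that exchanged signs within libraries (100000 resamples, two-sided, adjusted over the 6 pairs). The pairs were set by the means of the same 21 libraries. The p-values cover the spread between mice and not the choice of annotated length. The smallest differences were Olfr15 over Olfr17, with a log2 ratio of 0.42 ± 0.36 (SD) and higher in 18 of 21 libraries (permutation, adjusted p = 7.5e-05), Olfr17 over Olfr16, with 0.49 ± 0.49 and 19 of 21 (permutation, adjusted p = 0.000408), and Olfr73 over Olfr160, with 0.55 ± 0.62 and 18 of 21 (permutation, adjusted p = 0.00054). Olfr16 was above Olfr73 in 21 of 21 libraries, Olfr160 above Olfr2 in 20 and Olfr2 above Olfr151 in 19 (permutation, adjusted p between 3e-05 and 4e-05, where 1e-05 is the smallest unadjusted p that the resamples can give). Per coding length the order was the same and its steps differed: the log2 ratio was 1.21 for Olfr15 over Olfr17, 0.91 for Olfr17 over Olfr16, 0.34 for Olfr73 over Olfr160 (15 of 21 libraries, permutation, adjusted p = 0.021), 0.62 for Olfr160 over Olfr2 and 4.73 for Olfr2 over Olfr151. Olfr151 had 0 reads in 16 of 21 libraries, where its level in these ratios is only the 0.5 reads added. On both scales the step of Olfr2 over Olfr151 thus depends on that addition.

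**Figure D2:**
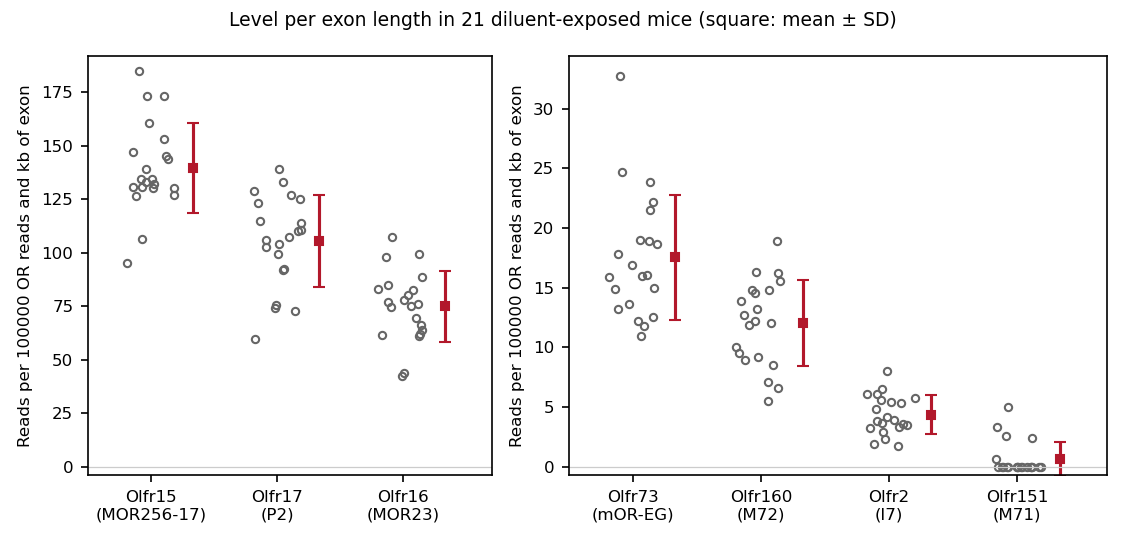
Level per exon length (vertical, reads per 100000 OR reads and kilobase of exon) of the 7 receptors in the 21 diluent-exposed mice; circles are single mice, spread sideways at random, and squares with bars are means ± SD. The 2 panels have different scales. The 3 abundant receptors lie between 42.4 and 185, and M71 lies at 0 in 16 of 21 mice.

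Baseline levels were then compared between the 7 control groups; those of 10 mM MTMT and CPD carry the same 2 label prefixes. No member passed the test of a difference between control groups, edgeR's quasi-likelihood F test with Benjamini-Hochberg adjustment over 1089 ORs (adjusted p from 0.621 for Olfr17 to 0.991 for Olfr160), where 28 ORs in all passed (2.57%). Control group means of Olfr15 ran from 0.825% ± 0.0134 in the controls of CPD to 0.97% ± 0.183 in the controls of 1% and 100% SBT. Those of Olfr17 ran from 0.275% ± 0.0611 in the controls of 1% and 100% SBT to 0.455% ± 0.0585 in the controls of 10 mM MTMT, the widest difference among the 3 abundant members relative to their level. For Olfr16 they ran from 0.171% ± 0.0474 in the controls of 10 mM MTMT to 0.238% ± 0.0452 in the controls of 1% and 100% SBT. Among the 3 less abundant members, those of Olfr2 lay furthest apart by ratio, from 0.0184% ± 0.00857 in the controls of DHB to 0.0411% ± 0.0148 in the controls of 1% and 100% SBT. Those of Olfr73 ran from 0.0391% ± 0.00227 in the controls that (E)-β-farnesene, 2,5-DMP and 100 μM MTMT shared to 0.0631% ± 0.0322 in the controls of 1% and 100% SBT, and those of Olfr160 from 0.0377% ± 0.0172 in the controls of CPD to 0.049% ± 0.0039 in the controls of 10 mM MTMT.

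No member passed the test in a comparison of an odor with its diluent, though only 34 of the 60 confidence intervals lay within a doubling and a halving. Of the 7, 6 had enough reads to be tested in each comparison (at least 10 over its 6 libraries); Olfr151 never did. By the quasi-likelihood test of edgeR, adjusted over all ORs tested in a comparison, 0 of the 60 member tests passed an adjusted p of 0.05, with adjusted p from 0.462 upward; 2 had an unadjusted p under 0.05. The share of all ORs called was 11.4% for 100% SBT, 1.77% for (E)-β-farnesene, 0.863% for 1% SBT, 0.841% for 2,5-DMP, 0.564% for DHB, 0.466% for 0.01% SBT, 0.281% for 100 μM MTMT and 0% for 10 mM MTMT, β-caryophyllene and CPD. Over the 10 comparisons together 1.61% of tests were called, and 6.25% had an unadjusted p under 0.05, against 3.33% of the member tests. A count of 0 in 60 is thus near the background of all ORs. The 3 comparisons without a call had 69, 51 and 40 ORs with an unadjusted p under 0.05, and DESeq2 called 15, 0 and 1. A joint F test of all 10 odor contrasts over the 51 libraries called no member either (adjusted p 0.471 for Olfr151, 0.564 for Olfr15, 0.664 for Olfr2, 0.761 for Olfr73, 0.837 for Olfr17, 0.998 for Olfr160 and 0.999 for Olfr16), while 13.3% of ORs were called. By a likelihood ratio test in place of the quasi-likelihood test, Olfr151 alone passed (adjusted p = 0.037, edgeR), on 33 reads over the 51 libraries.

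Log2 fold changes of the 60 tests ran from -1.01 to 1.56, 30 above and 30 below 0, with a median of 0.00, the same as that of all tests. How large a change they leave possible depended on the receptor's reads. The 95% confidence interval lay within a doubling and a halving (log2 fold change between -1 and 1) in 9 of 10 comparisons for Olfr17, in 8 for Olfr15 and for Olfr16, in 4 for Olfr160, in 3 for Olfr73 and in 2 for Olfr2. The abundant 3 were thus bounded more closely than I7. Over the 10 comparisons the intervals reached from -1.13 to 1.24 for MOR256-17, from -0.92 to 1.22 for P2 and from -1.26 to 0.84 for MOR23. Those of I7 reached from -2.29 to 3.25 and extended past a doubling or a halving in 8 of 10 comparisons.

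**Figure D3:**
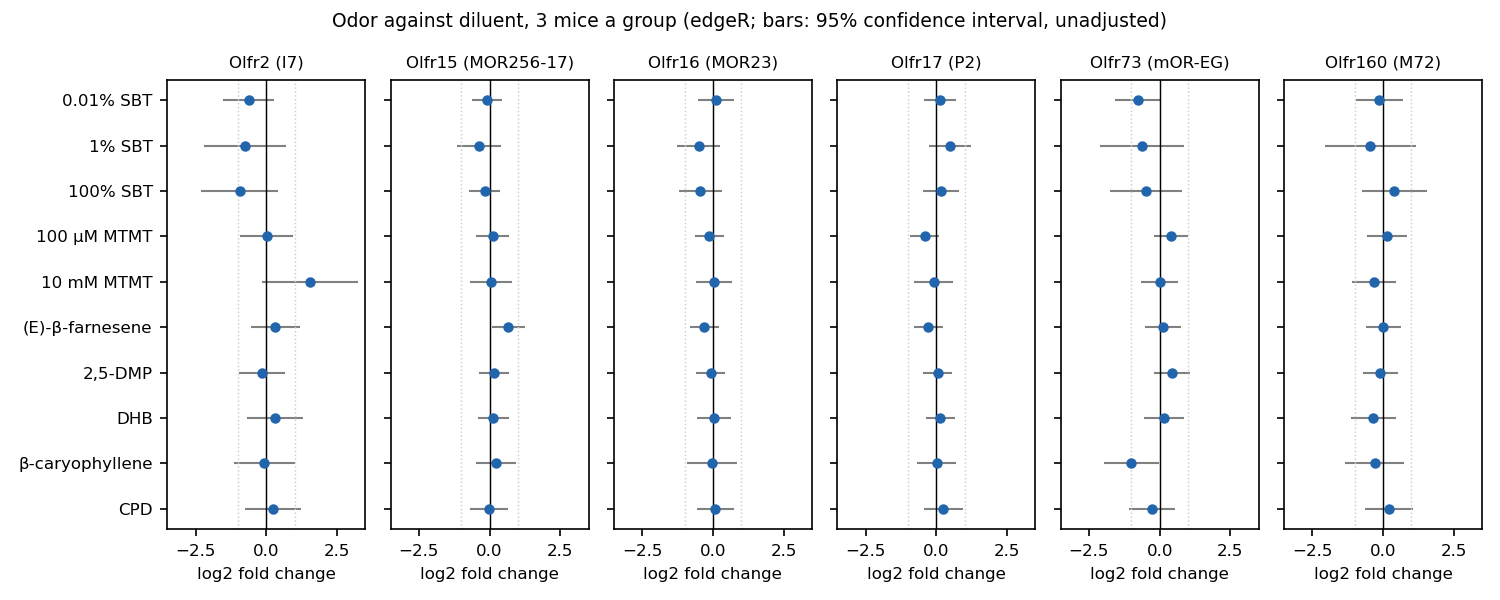
Log2 fold change (horizontal) of odor over diluent in each of the 10 comparisons (rows) for the 6 receptors tested, from edgeR with 3 mice in each group; bars are 95% confidence intervals not adjusted for the number of tests, and dotted lines mark a doubling and a halving. The intervals of Olfr15, Olfr16 and Olfr17 are short, and those of Olfr2 are long, the longest at 10 mM MTMT. The bars of Olfr15 at (E)-β-farnesene and Olfr73 at β-caryophyllene alone leave out 0.

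The broadly tuned MOR256-17 (Olfr15) held its highest shares after (E)-β-farnesene, a terpene of mouse urine. The 3 exposed mice had 1.26%, 1.31% and 1.22% of their OR reads (1498, 1627 and 1710 reads), and their 3 controls 0.595%, 1.08% and 0.814% (372, 1356 and 1005 reads). The groups did not overlap, and the 3 shares were the highest of all 51 libraries, the next being 1.16%, in a control library of 1% and 100% SBT. The difference did not pass the test (log2 fold change 0.66, SE 0.28, adjusted p = 0.552, unadjusted p = 0.0283), in a comparison where 6.44% of ORs had an unadjusted p under 0.05 and 10.7% had groups that did not overlap. The controls were spread widely: without their replicate 1, the lowest, the log2 fold change was 0.50 (adjusted p = 0.911), and without replicate 2, the highest, 0.87 (adjusted p = 0.534). The diluent these controls received is not given. The same 3 control mice served 2,5-DMP and 100 μM MTMT, after which the log2 fold changes of Olfr15 were 0.14 ± 0.26 and 0.11 ± 0.28 (SE). All libraries of these 3 exposures and their controls carried 1 label prefix.

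Over the odor groups the mean share of Olfr15 was, from highest to lowest, 1.26% ± 0.0474 after (E)-β-farnesene, 0.963% ± 0.0678 after β-caryophyllene, 0.935% ± 0.0357 after 2,5-DMP, 0.911% ± 0.0839 after 100 μM MTMT, 0.884% ± 0.099 after DHB, 0.854% ± 0.153 after 0.01% SBT, 0.757% ± 0.0797 after CPD, 0.694% ± 0.0932 after 1% SBT, 0.693% ± 0.136 after 10 mM MTMT and 0.653% ± 0.111 after 100% SBT (SD, n = 3 each). The low end was made up of the 1% and 100% SBT and the 10 mM MTMT groups. After 1% SBT the shares (0.596%, 0.782% and 0.703%) and after 100% SBT the shares (0.534%, 0.755% and 0.669%) lay below all 3 of the shared controls (0.793%, 1.16% and 0.96%). On the scale of the test, which sets the bulk of ORs to no change, they differed less: the log2 fold change was -0.36 ± 0.36 (SE) at 1% and -0.18 ± 0.25 at 100%, with adjusted p = 0.994 and 0.774. When library totals replaced the TMM scaling, the median OR moved by -0.39 at 100% SBT, -0.31 at 10 mM MTMT, -0.12 at 1% SBT and -0.11 at CPD (log2). The cause of this shift was not tested.

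MOR23 (Olfr16) had its lowest mean shares after the same 3 exposures, though its lowest single share, 0.093%, was in replicate 2 of β-caryophyllene. Its mean share was 0.22% ± 0.0701 after 2,5-DMP, 0.211% ± 0.061 after 100 μM MTMT, 0.203% ± 0.103 after β-caryophyllene, 0.191% ± 0.0561 after CPD, 0.184% ± 0.0459 after 0.01% SBT, 0.184% ± 0.0725 after DHB, 0.179% ± 0.0518 after (E)-β-farnesene, 0.154% ± 0.00707 after 1% SBT, 0.141% ± 0.0384 after 10 mM MTMT and 0.134% ± 0.0413 after 100% SBT (SD, n = 3 each). The 3 mice given 1% SBT had 0.159%, 0.157% and 0.146% and the 3 given 100% SBT 0.179%, 0.0976% and 0.125%, all below their shared controls (0.288%, 0.224% and 0.202%). The log2 fold changes were -0.50 ± 0.35 and -0.44 ± 0.35 (SE), with adjusted p = 0.994 and 0.544. Scaled to library totals alone, the value at 100% SBT was -0.83 (adjusted p = 0.119), which includes the shift of the median OR. In the other 8 comparisons its log2 fold change stayed between -0.30 and 0.09, and odor and control shares overlapped.

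P2 (Olfr17) overlapped with its controls in all 10 comparisons. Its mean share was 0.461% ± 0.125 after 2,5-DMP, 0.414% ± 0.0492 after DHB, 0.404% ± 0.0533 after 0.01% SBT, 0.394% ± 0.0626 after CPD, 0.39% ± 0.0409 after β-caryophyllene, 0.349% ± 0.02 after 1% SBT, 0.348% ± 0.0518 after (E)-β-farnesene, 0.336% ± 0.0785 after 10 mM MTMT, 0.333% ± 0.0579 after 100 μM MTMT and 0.233% ± 0.0285 after 100% SBT (SD, n = 3 each). The value after 100% SBT stood apart at the low end, but so did its controls (0.275% ± 0.0611), and the log2 fold change was 0.15 ± 0.30 (SE). The largest log2 fold changes were 0.48 ± 0.35 after 1% SBT and -0.41 ± 0.24 after 100 μM MTMT, with adjusted p = 0.994 and 0.955.

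mOR-EG (Olfr73) had its lowest mean share after β-caryophyllene, a plant sesquiterpene. The 3 exposed mice had 0.0266%, 0.015% and 0.0312% (21, 15 and 30 reads) and the 3 controls 0.0568%, 0.0453% and 0.0515% (50, 32 and 57 reads). The exposed mice were all below the controls, and the difference did not pass the test (log2 fold change -1.01, SE 0.45, adjusted p = 0.904, unadjusted p = 0.0438). In that comparison 4.87% of ORs had an unadjusted p under 0.05 and 12.3% had groups that did not overlap, while none was called.

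Over the odor groups the mean share of Olfr73 was 0.054% ± 0.0185 after 2,5-DMP, 0.0529% ± 0.00787 after 100 μM MTMT, 0.0495% ± 0.024 after DHB, 0.0484% ± 0.0136 after CPD, 0.0451% ± 0.00636 after 10 mM MTMT, 0.0408% ± 0.00464 after (E)-β-farnesene, 0.037% ± 0.0277 after 1% SBT, 0.0356% ± 0.0211 after 100% SBT, 0.0316% ± 0.0122 after 0.01% SBT and 0.0243% ± 0.00833 after β-caryophyllene (SD, n = 3 each). Its 2 MTMT doses went opposite ways by share: after 100 μM the 3 mice (0.0572%, 0.0438% and 0.0576%) lay above their controls (0.0384%, 0.0416% and 0.0373%), and after 10 mM they (0.0511%, 0.0458% and 0.0384%) lay below theirs (0.0542%, 0.0579% and 0.0576%). The 2 doses had different control groups, and 8.61% of all ORs at 100 μM and 14.2% at 10 mM had groups that did not overlap. On the TMM scale the log2 fold changes of Olfr73 were 0.41 ± 0.29 and -0.00 ± 0.29 (SE), and the difference between doses was -0.46 (SE 0.61, adjusted p = 0.9999, edgeR fit of all 51 libraries). After 0.01% SBT the log2 fold change was -0.78 ± 0.38 (SE) with overlapping shares.

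I7 (Olfr2) showed the largest log2 fold change of any member, at 10 mM MTMT, and a single mouse carried it. The 3 exposed mice had 19, 17 and 152 reads, or 0.0278%, 0.02% and 0.167%, and the 3 controls 20, 23 and 13 reads, or 0.0387%, 0.0325% and 0.0258%. Replicate 3 was 3.08 times the highest of the other 50 libraries and 6.79 times their median, and its 95% Wilson interval (0.142% to 0.196%) lay above all of them; the other 2 exposed mice were within the range of the controls or below it. The difference did not pass the test (log2 fold change 1.56, SE 0.76, adjusted p = 0.808), and without that library the log2 fold change was -0.20 (adjusted p = 0.997). The library is the one in which Olfr541 and Olfr1437 also stood far above all others. In this comparison it shared its label prefix with control replicate 3 alone, which had 13 reads. The part of that library in the result was measured only by leaving it out.

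Apart from that library, the shares of Olfr2 lay between 0.00869% and 0.0542%. The mean share was 0.0716% ± 0.0827 after 10 mM MTMT, 0.0318% ± 0.0115 after β-caryophyllene, 0.0308% ± 0.00678 after CPD, 0.0255% ± 0.00801 after (E)-β-farnesene, 0.0224% ± 0.0106 after 1% SBT, 0.0217% ± 0.00693 after DHB, 0.0215% ± 0.0109 after 100 μM MTMT, 0.0193% ± 0.00146 after 2,5-DMP, 0.0182% ± 0.00251 after 0.01% SBT and 0.0158% ± 0.00767 after 100% SBT (SD, n = 3 each). After 0.01% SBT (0.0175%, 0.016% and 0.0209%) and after 100% SBT (0.0147%, 0.0239% and 0.00869%) the exposed mice lay below their controls (0.0262%, 0.0239% and 0.0359%, and 0.025%, 0.0542% and 0.044%). After 1% SBT the groups overlapped. The log2 fold changes were -0.62 ± 0.43, -0.76 ± 0.67 and -0.94 ± 0.63 (SE) from the lowest dose to the highest, with adjusted p = 0.999, 0.994 and 0.462. No difference between doses passed the test (edgeR fit of all 51 libraries, adjusted p from 0.904 to 0.9999). It was -0.08 (SE 0.80) for 1% over 0.01%, -0.26 (SE 0.79) for 100% over 0.01% and -0.17 (SE 0.58) for 100% over 1%. The 0.01% dose had its own control group.

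M72 (Olfr160) and M71 (Olfr151), both known from work with acetophenone, gave no groups apart from their controls. M71 is annotated as a pseudogene in the assembly of this strain, and it had too few reads to be tested in a comparison. The mean share of Olfr160 was 0.0465% ± 0.0185 after 100 μM MTMT, 0.0452% ± 0.0127 after 100% SBT, 0.0403% ± 0.00315 after (E)-β-farnesene, 0.0397% ± 0.00119 after 2,5-DMP, 0.0388% ± 0.00113 after CPD, 0.034% ± 0.0115 after 0.01% SBT, 0.0336% ± 0.0162 after β-caryophyllene, 0.0326% ± 0.0161 after 10 mM MTMT, 0.0316% ± 0.0314 after 1% SBT and 0.0279% ± 0.00989 after DHB (SD, n = 3 each), on 6 to 64 reads a library. Its log2 fold changes ran from -0.46 ± 0.75 after 1% SBT to 0.40 ± 0.53 after 100% SBT (SE). Those ends share their controls, and the difference between the 2 doses did not pass the test (0.81, SE 0.46, adjusted p = 0.273, edgeR). Replicate 2 of the 1% SBT group had 45 reads where replicates 1 and 3 had 6 and 8. Olfr151 had reads in 7 odor libraries: 3 and 3 reads in replicates 1 and 3 of 0.01% SBT, 1 and 8 in replicates 1 and 2 of 2,5-DMP, 3 in replicate 2 of (E)-β-farnesene, 2 in replicate 1 of DHB and 1 in replicate 2 of 100 μM MTMT. It also had 1 to 4 reads in 5 control libraries, among the controls of 10 mM MTMT, CPD, DHB and β-caryophyllene. Every odor and control group had a mouse at 0 reads, so exposed and control mice overlapped in all 10 comparisons. Olfr151 fell under the minimum of 10 reads in each.

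**Figure D4:**
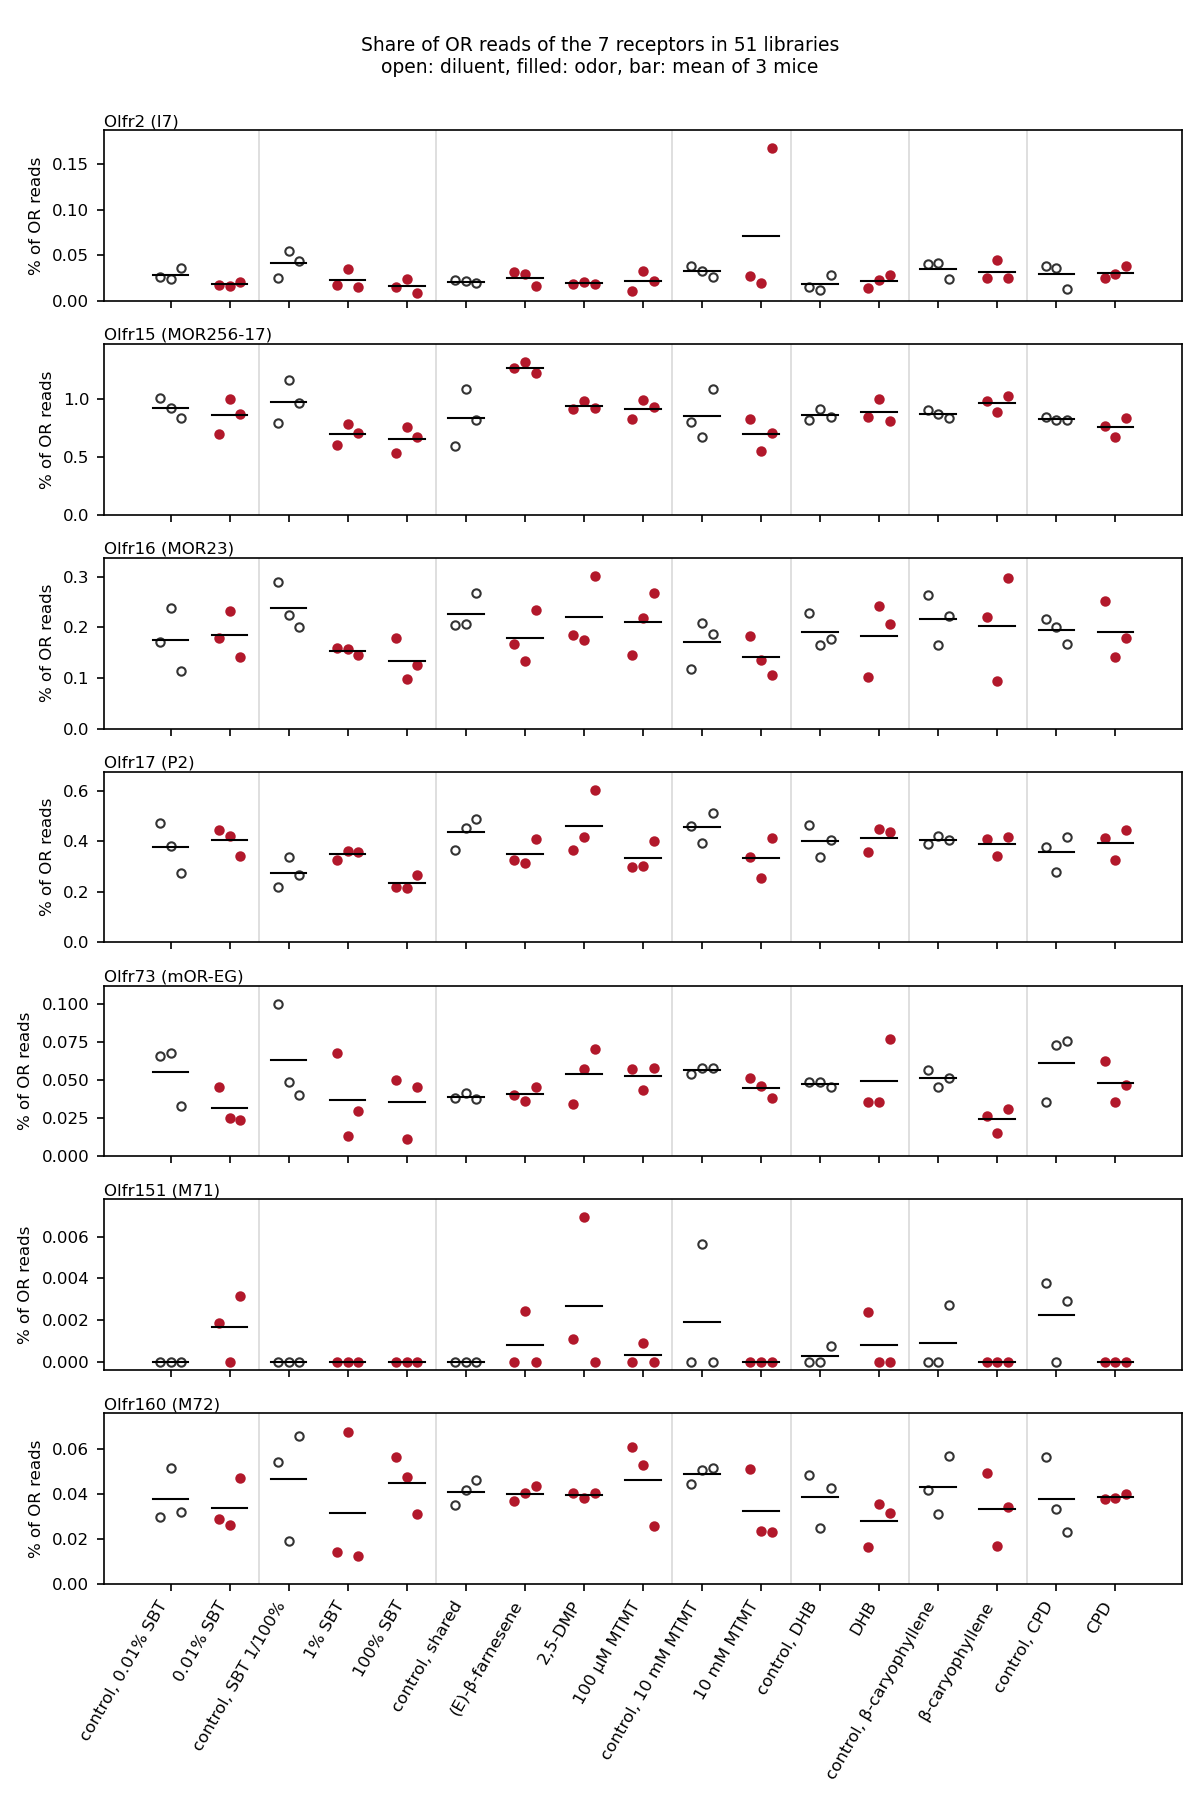
Share of OR reads (vertical, percent, a separate scale for each receptor) of the 7 receptors in all 51 libraries; open circles are diluent-exposed mice, filled circles odor-exposed mice, short bars the mean of 3 mice, and vertical lines separate control groups with their exposures, 2 of which have more than 1 exposure. The highest points of Olfr15 are the 3 (E)-β-farnesene mice, the single high point of Olfr2 is replicate 3 of 10 mM MTMT at 0.167%, and Olfr151 lies at 0 in 39 of 51 libraries.

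Taking all members, odor and control shares did not overlap in 10 of the 60 tests, 2 with odor higher and 8 with odor lower, or 16.7% of them. Over all ORs and comparisons it was 12.5% in either direction, and the directions were not counted apart. The comparisons of the 8 were among those where the median OR also moved down with library totals in place of TMM scaling. Its log2 shift there was -0.39 at 100% SBT, -0.31 at 10 mM MTMT, -0.12 at 1% SBT, -0.08 at β-caryophyllene and -0.02 at 0.01% SBT. The shift was also down at CPD (-0.11), DHB (-0.09) and (E)-β-farnesene (-0.05), where no member lay wholly below its controls. Whether the shift bears on the 8 was not tested. By comparison, the members were 1 of 6 at 0.01% SBT (all ORs 7.18%), 2 at 1% SBT (11.6%), 3 at 100% SBT (33.6%), 1 at 100 μM MTMT (8.61%), 1 at 10 mM MTMT (14.2%), 1 at (E)-β-farnesene and 1 at β-caryophyllene. The 2 at 1% SBT and the 3 at 100% SBT were set against the same 3 control mice, so these cases are not independent. Those controls held the highest control group means of Olfr2, Olfr15 and Olfr16. None of the differences passed the adjusted test.

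Among receptors next to the members or alike in sequence, 3 were called in 1 comparison each, 1 of them under every setting tried. The 23 other ORs within 100 kb of a member gave 2 calls in 218 tests (0.917%, against 1.61% of all tests), both higher with odor. Their median log2 fold change per comparison ran from -0.19 to 0.18, where that of all ORs ran from -0.07 to 0.03. One was Olfr714, 15418 bases from P2 and its closest relative among the ORs (73.3% identical in coding sequence), which rose after 0.01% SBT, with 134, 76 and 77 reads in exposed and 34, 22 and 22 in control mice (log2 fold change 1.71, SE 0.32, adjusted p = 0.0111). The other was Olfr1160, 24020 bases from mOR-EG, which rose after 100% SBT, with 137, 184 and 88 reads in exposed and 5, 12 and 11 in control mice (log2 fold change 3.25, SE 0.45, adjusted p = 0.000353). At 100% SBT 11.4% of all ORs tested were called, 112 higher and 8 lower, and Olfr1160 was 1 of 22 neighbors tested there. The call of Olfr1160 held under all 13 alternative settings, with adjusted p up to 0.00386. That of Olfr714 held under 8 of 13 and was lost without control replicate 1 or 2 or without odor replicate 1 or 3 (adjusted p from 0.0678 to 0.0844) and in 1 fit of all 51 libraries (adjusted p = 1), with log2 fold changes of 1.61 to 1.82 throughout. P2 itself had a log2 fold change of 0.12 ± 0.27 (SE) after 0.01% SBT and mOR-EG -0.48 ± 0.59 after 100% SBT, neither past the test.

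The closest relatives, the 3 ORs with the most identical coding sequence for each member, were 18 besides the members. Of their 173 tests 2 were calls (1.16%, against 1.61% of all tests), both higher, with medians per comparison from -0.26 to 0.18. Besides Olfr714 this was Olfr90, the closest relative of MOR256-17 (65.7% identical), which rose after (E)-β-farnesene, with 323, 346 and 339 reads in exposed and 90, 178 and 178 in control mice (log2 fold change 0.93, SE 0.23, adjusted p = 0.0375). The call held under 6 of 13 alternatives only: it was lost without any 1 of the control replicates or without odor replicate 1 or 2 (adjusted p from 0.0583 to 0.228), scaled to library totals (adjusted p = 0.0631) and in 1 fit of all 51 libraries (adjusted p = 0.533), with log2 fold changes of 0.85 to 1.01 throughout. Olfr15 and Olfr90 share no stretch of 50 bases. The closest relatives of the other members were Olfr524 for Olfr2 (65.5%), Olfr418 for Olfr16 (72.2%) and Olfr74 for Olfr73 (76.8%), none of them called. Of 12 other much studied receptors, none was called in 115 tests (edgeR, adjusted p), and 7 of these tests had an unadjusted p under 0.05. Over all ORs 1.61% of tests were called and 6.25% had an unadjusted p under 0.05. The medians of the 12 receptors per comparison ran from -0.64 to 0.36.

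Correlations between members across the 51 libraries were weak. Over log2 shares, with 5 reads per 100000 added, Pearson's r between 2 members ranged from -0.13 (Olfr2 and Olfr16) to 0.442 (Olfr16 and Olfr73), Olfr151 left out, and it describes points that share libraries and a fixed total. By the same measure, the ORs most like Olfr15 were Olfr1411 (r = 0.73), Olfr361 (r = 0.65) and Olfr124 (r = 0.57), those most like Olfr17 Olfr1364 (r = 0.64), Olfr1115 (r = 0.60) and Olfr1247 (r = 0.57) and those most like Olfr16 Olfr691 (r = 0.58), Olfr237 (r = 0.58) and Olfr681 (r = 0.55), among ORs with a mean of at least 50 reads. For Olfr73 they were Olfr789 (r = 0.51), Olfr1229 (r = 0.51) and Olfr1264 (r = 0.49), and for Olfr160 Olfr691 (r = 0.49), Olfr1252 (r = 0.45) and Olfr414 (r = 0.45). The 3 most like Olfr2 were Olfr541 (r = 0.48), Olfr1396 (r = 0.46) and Olfr1299 (r = 0.44), and this likeness rested on replicate 3 of 10 mM MTMT: without it, r was -0.21 for Olfr541, 0.24 for Olfr1396 and 0.27 for Olfr1299. For Olfr151, at 0 in most libraries, the 3 were Olfr491 (r = 0.40), Olfr698 (r = 0.36) and Olfr1448 (r = 0.32), with too few reads to describe a pattern.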

How the data were processed

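pS6-IP-Seq libraries of 51 mice were aligned by the authors with STAR to GRCm38, up to 10 alignments kept per read, and quantified with RSEM; versions are not given in the sources used here. The deposited estimated counts are whole numbers for the intact ORs only. Columns of the authors' own comparisons were not used, nor were 6 per-sample columns that match no sample. The members and all gene lists were chosen with earlier results of these data known.

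Shares are percent of a library's OR reads. edgeR 4.0.16 in R 4.3.3 tested ORs that had 10 reads or more in a comparison, with TMM factors over ORs, the quasi-likelihood test and Benjamini-Hochberg adjustment over all ORs at 0.05; DESeq2 1.42.0 was an alternative, and the fits were tested on simulated data. The SE is the log2 fold change divided by the square root of F. Replicates are separate mice, so p-values measure the spread between mice. Same-numbered odor and control mice deviated together weakly in all 10 comparisons (correlation from 0.043 to 0.294). The correlation was over 0.1 in every pair in 4 of them, those of 1% SBT, 100% SBT, β-caryophyllene and CPD. That limit does not mark the others as unpaired.

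The other genes named are, by rule, ORs within 100 kb of a member or among its 3 closest relatives if called, each member's closest relative, and the 3 ORs most like it over the libraries. The rule had protein identity in view; coding-sequence identity was used in its place. Olfr541, Olfr1437, Olfr544 and Olfr545, the tests between doses, the alternatives for the called ORs that are not members and the likeness without a library were added after values had been seen. Positions and sequences come from GRCm38 with GENCODE M21, gene lengths being the union of annotated exons.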

Additional observations from a re-analysis of the deposited data

How the results depend on the processing

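Over 13 alternatives per comparison (DESeq2, library totals, other filters, the likelihood ratio test, all 51 libraries in 1 fit, a replicate block, and each of 6 libraries left out), no member was called in any of the 10 comparisons. The lowest adjusted p was 0.119, for Olfr16 at 100% SBT with library totals, and 65 of 780 recomputed log2 fold changes had the other sign. With the replicate block the lowest adjusted p was 0.194 over the 10 comparisons and 0.396 over the 4 with every same-number correlation over 0.1. It was 0.232 in the joint test of all odors, and 0 members were called. In that joint test the likelihood ratio test called 1 member, Olfr151 (adjusted p = 0.037), where the quasi-likelihood test called none; the cause was not tested. Leaving out 1 library at a time, the lowest adjusted p was 0.25 in that test and 0.4997 between control groups, and the number of members called stayed at 0. Olfr15, itself ranked 7th by mean share, held 0.874% of the OR reads in controls. Set against the OR reads without the 10 highest ORs, the value was 1.01%, which is a ratio and not a share. The order per length was the same with the longest transcript and with coding length, with steps that moved by over 1.5 times with coding length. The longest transcript differed from the exon union only for Olfr15 (6240 against 6260 bases) and Olfr2 (6178 against 6734), so it could hardly change the order. Coding lengths of the members ran only from 929 to 984 bases, so that order nearly repeats the order by share. Counts over all ORs moved more: at 10 mM MTMT 0 were called, 15 by DESeq2, 5 by the likelihood ratio test, 29 in 1 fit of all libraries and 38 without odor replicate 1, and at 1% SBT 9 were called, 15 by the likelihood ratio test, 28 in 1 fit, 5 without control replicate 2 and 0 without odor replicate 1. At (E)-β-farnesene 19 were called, 12 in 1 fit and 8 to 12 without control replicate 2 or odor replicate 1 or 2, at 2,5-DMP 9, 15 by the likelihood ratio test and 17 with the replicate block, at 0.01% SBT 5 and 3 without control replicate 1 or 2 or odor replicate 3, and at 100 μM MTMT 3, with 0 to 7 over the alternatives. At CPD 0 were called, and 1 in 4 alternatives. Between control groups 28 were called, and 64 by the likelihood ratio test. Reads limit Olfr2, Olfr73 and Olfr160, whose intervals mostly reach past a doubling or a halving, and kept Olfr151 out of the 10 comparisons at the minimum of 10 reads. With a minimum of 1 read its log2 fold changes ran from -3.85 to 4.57, none called.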
